A study of Mus musculus with 9 samples.

Results

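The genes described here drive the passage from G1 into S phase and copy the DNA, and 51 of them were listed by name. Each was represented by the probe set that the platform annotation pairs with that gene alone and that had the highest mean over the 9 arrays. Of the 51 genes, 50 had such a probe set, among 18193 genes that had one, and Chaf1a had none. A gene was tested if at least 3 of its 9 values exceeded the median of their own array, which 48 of the 50 did, among 11006 genes of the whole array, and Orc1 and Gins3 were left out as too dim. The arrays came from 3 groups of 3 samples of C57BL/6 mouse stomach. The chief group was Mist1+ Tomato+ cells of the gastric corpus, collected by flow cytometry with no ablation. The isthmus group was Mist1+ Tomato+ corpus cells collected after Lgr5+ cells had been ablated, and the parietal group was gastric parietal cells. Tomato is a red fluorescent reporter, Mist1 (gene Bhlha15) controls transcription in cells that secrete enzymes, and Lgr5 is a Wnt pathway receptor used as a stem cell marker. The promoter behind the reporter, the means of ablation, the age and sex of the mice and any pooling were not given in the sources used here. The labels do not say that the samples of a group came from separate animals, so p-values cover the spread among these samples alone, which may be technical.

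Replication is prepared in G1, when the origin recognition complex (Orc proteins), Cdc6 and Cdt1 load the Mcm2 to Mcm7 helicase onto DNA. The kinases Cdk2 and Cdc7 then recruit Cdc45 and the GINS complex, which turns the loaded helicase into a moving fork with polymerases, a sliding clamp and enzymes that supply nucleotides. E2F transcription factors, held in check by RB family proteins, switch many of these genes on. In the stomach corpus, dividing progenitors lie mainly in the isthmus of the gland, while parietal cells and most chief cells are mature secretory cells that seldom divide.

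Promoters of 250 bases before to 50 after the annotated start were taken from RefSeq (build GRCm38.p6), which held 51 promoters for 42 of the 51 genes. Gmnn, Mcm4, Gins1, Gins2, Gins4, Prim2, Pole, Rfc2 and Ccne2 had no entry. The letters TTTCCCGC, TTTGGCGC, TTTCGCGC or TTTGCCGC, which E2F factors are known to bind, were searched on both strands, and matches may overlap. They occurred in 31.4% of the genes' promoters (16 of 51), against 2.26% of all 32851 promoters of the table. The 16 genes were Orc1, Cdc6, Cdt1, Mcm3, Mcm5, Mcm6, Mcm7, Gins3, Pola1, Pold1, Pole2, Rfc3, Lig1, Uhrf1, Cdk2 and E2f2. The cell cycle homology region TTTGAA, known from G2/M genes, occurred in 17.6% of the promoters against 17.9% of all promoters. The CCAAT box (CCAAT) occurred in 56.9% against 37.4%. A match is a run of letters, and whether a factor bound there was not measured. The stretches below are shown because Mcm5, Mcm6 and Rfc3 fell in parietal cells, as described further on, and because they overlap no RefSeq gene. They run 5′ to 3′ on the gene's strand, and capitals mark the E2F letters.

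Mcm5, chr8:75109331-75109392, plus strand: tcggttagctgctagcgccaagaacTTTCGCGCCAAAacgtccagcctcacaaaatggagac

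Mcm6, chr1:128359720-128359840, minus strand: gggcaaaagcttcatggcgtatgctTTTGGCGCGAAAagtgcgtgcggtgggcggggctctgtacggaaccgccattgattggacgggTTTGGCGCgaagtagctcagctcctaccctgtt

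Rfc3, chr5:151651209-151651243, minus strand: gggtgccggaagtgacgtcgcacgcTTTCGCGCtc

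The Mcm5 stretch holds 2 overlapping matches, one on each strand, and lies 178 to 117 bases before the start. The Mcm6 stretch holds 3 matches, of which the first 2 overlap, and lies 135 to 15 bases before the start. The Rfc3 stretch ends 1 base before the start and holds 1 match. Another Rfc3 match, GCGGGAAA, begins directly after the stretch and is not printed.

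The deposited values are log2 signals, and the array medians lay between 5.80 and 6.70. Acid-secretion markers set the parietal arrays apart, and all 5 parietal markers were called higher there against either group. Slc26a7, a chloride channel of parietal cells, lay at 11.68 to 12.06 log2 in the parietal samples and at 4.76 to 6.32 on the other 6 arrays. The other parietal markers exceeded the array median on every array. Atp4a lay at 14.03 to 14.32 in the parietal samples and at 12.09 to 13.75 on the other 6 arrays. The summed linear signal of the 5 parietal markers was 14200 to 26200 in the chief, 10600 to 20700 in the isthmus and 52200 to 61400 in the parietal samples. The summed linear signal of 5 chief cell markers was 74500 to 97100 in the chief, 28000 to 36100 in the isthmus and 16700 to 26400 in the parietal samples. Bhlha15, the gene behind the Mist1+ label, was 10.75, 10.05 and 9.20 log2 in the chief samples but 5.03, 1.34 and 7.36 in the isthmus samples. It was 6.82, 4.21 and 0.00 in the parietal samples. Surface pit cell transcripts were found on all 9 arrays, and the summed signal of 5 pit cell markers was 104000 to 129000 in the chief, 67400 to 80500 in the isthmus and 52200 to 59100 in the parietal samples. Leukocyte markers summed to 614 to 1540 in the chief, 172 to 332 in the isthmus and 194 to 606 in the parietal samples, and Cd53 stood at 0 in isthmus replicates 1 and 2. In chief replicates 1 and 2, Cd74 was the only leukocyte marker above the array median, at 10.05 and 9.13 log2. Endothelial markers summed to 51.9 to 122 over the 9 arrays. Chief replicate 3 stood apart in connective tissue markers, which summed to 25800 there and to 62.4 to 411 elsewhere, and in erythroid markers, at 24400 there and 2570 to 4150 elsewhere. The erythroid Hba-a2 lay at 11.29 to 12.25 log2 over the 9 arrays. Hbb-b2 was 9.84, 9.56 and 14.11 in the chief, 0.00 to 5.75 in the isthmus and 0.17 to 5.84 in the parietal samples. Xist, the transcript of the inactive X chromosome, was 11.72 log2 in chief replicate 3 and 13.13 in parietal replicate 1, against 4.46 to 5.93 on the other arrays. The Y-linked Eif2s3y was 10.63 in chief replicate 3 and 2.84 in parietal replicate 1, against 11.11 to 11.59 on the other arrays. Parietal replicate 1 thus differed from parietal replicates 2 and 3 (11.32 and 11.59) in sex-linked transcripts. The part of these differences in the results below was not tested, and counts and lost calls without chief replicate 3 and parietal replicate 1 are given with each comparison. In bulk samples such as these, fewer cells of a type and less RNA per cell cannot be told apart.

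Replication genes were highest in the isthmus samples and lowest in the parietal samples. By group mean, 41 of the 50 genes were highest in the isthmus, 8 in the chief and 1, Gmnn, in the parietal samples. The parietal mean was lowest for 47 genes, the chief mean for 3 and the isthmus mean for none. Such counts were not made over all genes. The median signal of the 50 genes was 9.73, 9.30 and 9.50 log2 in the isthmus samples, 8.52, 8.82 and 9.16 in the chief samples and 7.60, 7.56 and 6.77 in the parietal samples. The 3 groups did not overlap in this median. Over all 18193 genes the median was 6.57, 6.52 and 6.50 in the parietal samples, so these were lowest there too. It was 7.14 to 7.44 in the chief and 6.96 to 7.15 in the isthmus samples. The number of genes above the array median was 48, 46 and 49 in isthmus, 41, 45 and 45 in chief and 34, 37 and 34 in parietal samples. In the parietal samples 68.0% to 74.0% of the 50 genes thus lay above the array median, against 54.3% to 55.1% of all 18193 genes. Over all 9 arrays that share of all genes was 54.3% to 56.2%. In these 50 genes parietal arrays also varied more, with a median SD of 0.81 log2, against 0.58 for chief and 0.51 for isthmus arrays. That was not so over all genes tested, where the parietal arrays were most alike. They correlated with one another at 0.885 to 0.895, against 0.848 to 0.852 among isthmus and 0.806 to 0.831 among chief arrays.

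**Figure D1:**
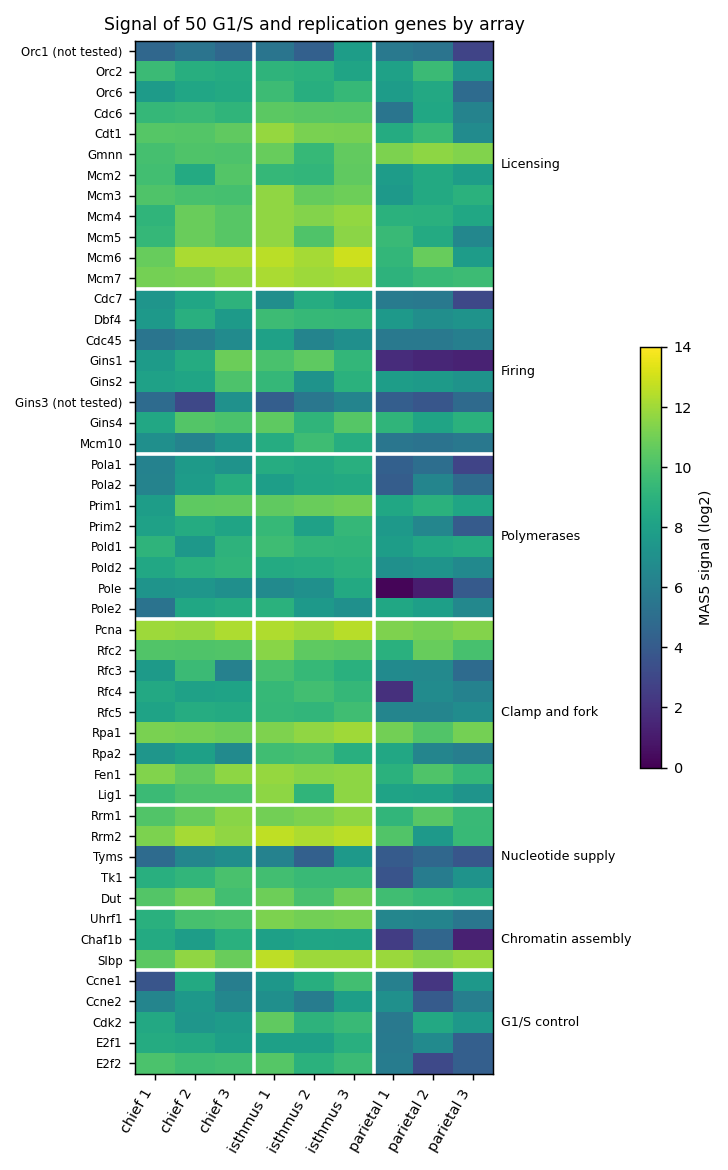
Deposited log2 MAS5 signal (colour, 0 to 14) of the 50 genes with a probe set (rows, in their role groups) on each of the 9 arrays (columns, in 3 groups of 3). The parietal columns are darkest in most rows, while Gmnn is brightest there, at 11.26 to 11.64.

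Parietal cells were compared with isthmus cells first, the pair that differed most. Of the 3 groups, the isthmus alone is described as taken after ablation of Lgr5+ cells. In this pair, too, effects of the ablation cannot be told apart from differences between cell types. Of the 48 genes tested, 36 fell and 1 rose in the parietal samples, and 11 did not pass the limma test. Over all genes tested, 15.4% were called lower and 12.2% higher. The median log2 difference was -2.73 over the 48 genes and -0.09 over all 11006. For 39 genes every parietal array lay below every isthmus array, as was so for 24.0% of all genes tested. Of the 37 calls, 25 held whichever 1 of the 9 arrays was left out. Without isthmus replicate 3 there were 29 calls, all among the 37. Without parietal replicate 3 there were also 29, of which 28 were among the 37. Without chief replicate 3 and parietal replicate 1 together 33 calls were made, and those of Orc6, Gmnn, Mcm2 and Cdk2 were lost (adjusted p of 0.0562 to 0.0856).

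Against chief cells, the parietal samples had 24 of the 48 genes lower and 1 higher, and 23 did not pass. Over all genes tested, 13.5% were called lower and 10.7% higher. The median log2 difference was -1.67, against -0.10 over all genes. The groups lay apart for 28 genes, lower in parietal samples, against 21.2% of all genes tested. Of the 25 calls, 15 held whichever 1 array was left out, and 18 calls were made without chief replicate 3 or without parietal replicate 3. Without chief replicate 3 and parietal replicate 1 together, 14 calls were made, 11 of them among the 25. The 14 calls lost without both arrays were those of Cdt1, Gmnn, Mcm3, Mcm4, Mcm6, Cdc7, Pola1, Pola2, Pold2, Pcna, Rfc4, Rfc5, Lig1 and Rrm1 (adjusted p of 0.0529 to 0.398). The comparisons share the parietal samples, so their calls are given side by side and not as independent evidence.

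Isthmus cells lay above chief cells in most of these genes, but no single gene passed the test. Only the isthmus samples of this pair were taken after ablation of Lgr5+ cells. Effects of the ablation and differences between cell types therefore cannot be told apart here. The log2 difference was positive for 40 of the 48 genes and negative for 8, with a median of 0.78 against 0.03 over all genes. No gene was called at an adjusted p under 0.05 by limma, where 0.391% of all genes were called higher and 1.26% lower. At an unadjusted p under 0.05, 9 genes were higher and 0 lower, and 8.28% of all genes tested were higher at that level. Every isthmus array lay above every chief array for 19 genes, and for 10.6% of all genes tested. The opposite held for 0 of the 48 genes and for 10.5% of all genes. The median difference was 0.53 without chief replicate 1, the array with the lowest chief values, and 0.95 without chief replicate 3.

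**Figure D2:**
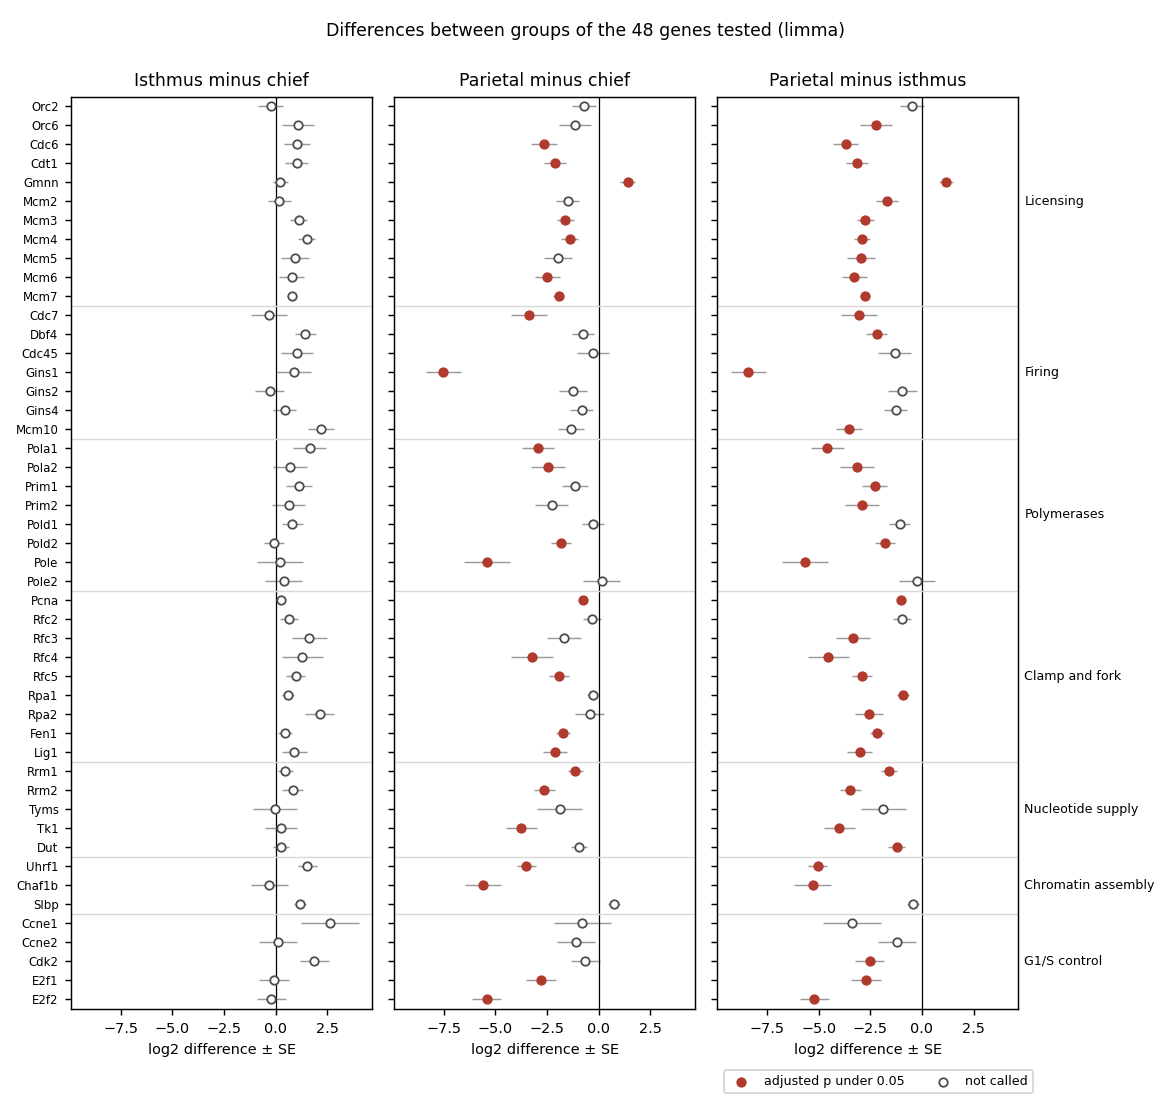
Fitted log2 difference ± SE (limma) of the 48 genes tested, in 3 panels, isthmus minus chief, parietal minus chief and parietal minus isthmus. Filled points passed an adjusted p of 0.05. No point is filled in the first panel, 25 are in the second and 37 in the third, and Gmnn alone is filled to the right of 0.

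Of the 12 origin licensing genes 11 were tested. In parietal cells against isthmus cells 9 fell and Gmnn rose, with a median of -2.75, and against chief cells 6 fell and Gmnn rose, with a median of -1.63. Cdc6, a loader of the helicase, was 9.33, 9.50 and 9.17 log2 in chief, 10.46, 10.35 and 10.30 in isthmus and 5.45, 8.33 and 6.25 in parietal samples. All 3 groups lay apart, with the isthmus highest. Cdc6 fell at least 11.8-fold against isthmus (log2 -3.69 ± 0.62 SE, adjusted p = 0.000789) and at least 5.75-fold against chief cells (adjusted p = 0.00773). "At least" is written where the group with the lower signal had an array under its own median. Each such fold takes the array median as a stand-in for background. Cdt1, which loads the helicase with Cdc6, was 10.29, 10.23 and 10.58 in chief, 11.81, 11.18 and 11.15 in isthmus and 8.60, 9.41 and 6.74 in parietal samples. Its groups also lay apart, and it fell 8.75-fold against isthmus (adjusted p = 0.000985) and 4.34-fold against chief cells (adjusted p = 0.0128, and 0.057 without chief replicate 3 and parietal replicate 1 together).

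The helicase subunits, which unwind the DNA at the fork, were called lower against isthmus cells for all 6 genes. Mcm6 was 10.77, 12.22 and 12.22 log2 in chief, 12.55, 12.09 and 12.91 in isthmus and 9.26, 10.72 and 7.74 in parietal samples. Parietal arrays lay below all others, while chief and isthmus arrays overlapped. It fell 9.69-fold against isthmus (log2 -3.28 ± 0.60 SE, adjusted p = 0.00148) and 5.64-fold against chief cells (adjusted p = 0.00931, and 0.0714 without chief replicate 3 and parietal replicate 1). Mcm7 was 11.10, 11.20 and 11.62 in chief, 12.22, 11.97 and 12.09 in isthmus and 9.03, 9.44 and 9.59 in parietal samples, a small spread with no overlap. It fell 6.68-fold against isthmus (log2 -2.74 ± 0.25 SE, adjusted p = 1.28e-05) and 3.87-fold against chief cells (adjusted p = 0.000157). Mcm5 was 9.33, 10.78 and 10.37 in chief, 11.65, 10.15 and 11.54 in isthmus and 9.47, 8.58 and 6.46 in parietal samples. Mcm5 fell 7.69-fold against isthmus (adjusted p = 0.00645), but its parietal and chief arrays overlapped and that difference missed the threshold (log2 -1.99, adjusted p = 0.0506). Mcm3 fell 6.71-fold against isthmus (adjusted p = 0.000356) and 3.10-fold against chief cells (adjusted p = 0.0117, and 0.0682 without the same 2 arrays). Mcm4 fell 7.48-fold (adjusted p = 0.000209) and 2.65-fold (adjusted p = 0.0224) in the same order, the latter call being lost without chief replicate 2, chief replicate 3 or parietal replicate 3 (adjusted p of 0.0688 to 0.0887).

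Mcm2 had the smallest parietal minus isthmus difference of the 6 subunits. It was 9.78, 8.55 and 10.23 log2 in chief, 9.35, 9.19 and 10.57 in isthmus and 7.74, 8.52 and 7.77 in parietal samples. It fell 3.23-fold against isthmus (adjusted p = 0.0321), a call lost without isthmus replicate 3, parietal replicate 1 or parietal replicate 3 (adjusted p of 0.0891 to 0.142). Against chief cells its log2 difference was -1.51 (adjusted p = 0.0575). Orc6 fell at least 3.75-fold against isthmus cells (adjusted p = 0.0499). That call was lost without any 1 array other than parietal replicate 2 (adjusted p of up to 0.165). Against chief cells Orc6 had a log2 difference of -1.15 (adjusted p = 0.318). Orc2, a core origin subunit, was not called in either comparison, at -0.49 against isthmus and -0.73 against chief cells. Orc1 was dim, at 2.86 to 7.81 log2 over the 9 arrays, and was not tested.

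Gmnn, which encodes geminin, the protein that binds Cdt1 and blocks a second round of licensing, went the opposite way. It was 9.87, 10.12 and 10.07 log2 in chief, 10.75, 9.37 and 10.61 in isthmus and 11.26, 11.64 and 11.34 in parietal samples. Each parietal array lay above each other array. Gmnn rose 2.63-fold against chief (log2 1.39 ± 0.35 SE, adjusted p = 0.0119) and 2.25-fold against isthmus cells (log2 1.17 ± 0.35 SE, adjusted p = 0.025). The first call was lost without parietal replicate 2 (adjusted p = 0.0503) and without chief replicate 3 and parietal replicate 1 together (0.0529). The second was lost without isthmus replicate 2, parietal replicate 2 or parietal replicate 3 (adjusted p of 0.0621 to 0.0904). One probe set names Gmnn alone, so no other probe set of this gene could be set beside it.

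**Figure D3:**
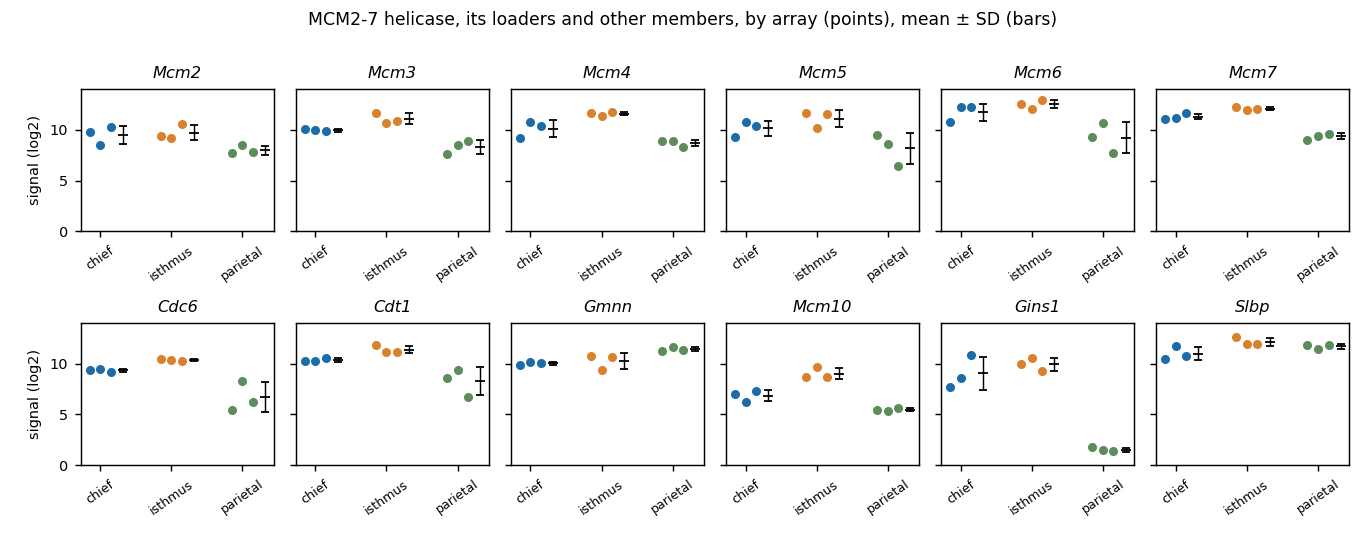
Log2 signal by array (points) with group mean ± SD (bars, n = 3) for the 6 Mcm2 to Mcm7 subunits, Cdc6, Cdt1, Gmnn, Mcm10, Gins1 and Slbp. Parietal points lie lowest for the helicase subunits and their loaders, except that parietal replicate 1 lies above chief replicate 1 for Mcm5, and at the top for Gmnn, and between chief and isthmus means for Slbp.

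Of the 7 origin firing genes tested, 4 fell in parietal against isthmus cells and 2 against chief cells, and none rose. Gins1, a subunit of the GINS complex, was 7.69, 8.60 and 10.86 log2 in chief, 10.00, 10.51 and 9.28 in isthmus, but 1.75, 1.50 and 1.35 in parietal samples. The parietal signal lay far below the array median on all 3 arrays, so the folds are bounds of at least 17.1-fold against isthmus (log2 -8.40 ± 0.84 SE, adjusted p = 2.42e-05) and at least 9.27-fold against chief cells (adjusted p = 5.34e-05). A second Gins1 probe set was dimmer and gave means of 6.09 in the chief, 6.83 in the isthmus and 2.59 in the parietal samples. The other GINS subunits were not called. Gins2 was at -0.94 against isthmus and -1.24 against chief cells, and Gins4 at -1.26 and -0.83, none of them called. Gins3 lay between 3.01 and 7.07 over the 9 arrays and was not tested.

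Mcm10, a fork assembly factor, was 6.96, 6.26 and 7.28 log2 in chief, 8.66, 9.63 and 8.71 in isthmus and 5.48, 5.32 and 5.61 in parietal samples. All 3 groups lay apart. Mcm10 fell at least 8.96-fold in parietal against isthmus cells (adjusted p = 0.00126), with a log2 difference of -1.36 against chief cells (adjusted p = 0.14). Cdc7, the kinase that starts firing, was 7.29, 8.28 and 9.05 in chief, 6.90, 8.68 and 8.04 in isthmus and 5.80, 5.67 and 3.04 in parietal samples. Cdc7 fell at least 4.10-fold against isthmus (adjusted p = 0.0216) and at least 5.17-fold against chief cells (adjusted p = 0.0146). The first of these calls was lost without isthmus replicate 2, isthmus replicate 3 or parietal replicate 3 (adjusted p of up to 0.0844), and the second without chief replicate 3 or parietal replicate 3 (up to 0.0619). A second Cdc7 probe set was dimmer and showed neither fall. Its means were 6.26 in the chief, 4.16 in the isthmus and 6.24 in the parietal samples. On that probe set the parietal arrays (5.88 to 6.51) lay above the isthmus arrays (3.01 to 4.91). Dbf4, the activating subunit of Cdc7, was 7.52, 8.83 and 7.63 in chief, 9.60, 9.36 and 9.31 in isthmus and 7.59, 6.90 and 7.21 in parietal samples. Dbf4 fell 4.56-fold against isthmus cells (adjusted p = 0.00708), whereas parietal and chief arrays overlapped (log2 -0.76, adjusted p = 0.32). Cdc45 was dim, at 5.46, 6.00 and 6.78 in chief, 8.0, 6.33 and 6.99 in isthmus and 5.67, 5.66 and 6.03 in parietal samples, and was not called in any comparison.

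Among the 8 polymerase and primase genes, 6 fell against isthmus cells and 4 against chief cells. Pole, the catalytic subunit of the leading-strand polymerase, was 7.27, 7.33 and 6.97 log2 in chief, 6.68, 7.05 and 8.51 in isthmus and 0.20, 1.11 and 3.99 in parietal samples. The parietal arrays lay well below all others, and Pole fell at least 2.98-fold against isthmus (log2 -5.65 ± 1.12 SE, adjusted p = 0.00247) and at least 2.56-fold against chief cells (adjusted p = 0.00376). Pole2, a second subunit of the same enzyme, was not called, at -0.24 and 0.14. Pola1, the catalytic subunit that starts each new strand, was 6.23, 7.64 and 7.17 in chief, 8.68, 8.45 and 8.84 in isthmus and 4.28, 5.07 and 2.88 in parietal samples. Its 3 groups lay apart, and it fell at least 7.06-fold against isthmus (adjusted p = 0.000951) and at least 2.26-fold against chief cells (adjusted p = 0.0166). The latter call was lost without chief replicate 2 or parietal replicate 3 (adjusted p of up to 0.0602). Pola2, its partner, was 6.24, 7.74 and 8.74 in chief, 7.83, 8.40 and 8.52 in isthmus and 4.13, 6.38 and 4.84 in parietal samples. Pola2 fell at least 4.66-fold against isthmus cells (adjusted p = 0.0129). Against chief cells it fell at least 2.91-fold (adjusted p = 0.0454), which held only without chief replicate 1 or parietal replicate 2 among fits lacking 1 array (adjusted p of up to 0.172).

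The primase subunits fell against isthmus cells alone by the threshold, and the difference between the comparisons was not tested. Prim2 was 8.0, 8.64 and 8.18 log2 in chief, 9.40, 7.99 and 9.31 in isthmus and 7.53, 6.43 and 4.03 in parietal samples. Prim2 fell at least 4.90-fold against isthmus cells (adjusted p = 0.018) and was at -2.28 against chief cells (adjusted p = 0.0585). Prim1 fell 4.85-fold against isthmus cells (adjusted p = 0.015) and was at -1.15 against chief cells. The Prim2 call was lost without isthmus replicate 1, isthmus replicate 3 or parietal replicate 3 (adjusted p of up to 0.0674), and the Prim1 call without parietal replicate 3 (0.0506). Of the lagging-strand polymerase, the subunit Pold2 was 8.41, 8.86 and 9.15 in chief, 8.57, 8.69 and 8.96 in isthmus and 7.01, 7.24 and 6.64 in parietal samples. It fell 3.43-fold against isthmus (adjusted p = 0.015) and 3.59-fold against chief cells (adjusted p = 0.0142). Both calls were lost without parietal replicate 3, the first also without isthmus replicate 3 and the second without chief replicate 3 (adjusted p of 0.0509 to 0.0549 over the 4 fits). The catalytic subunit Pold1 was not called, at -1.08 against isthmus and -0.27 against chief cells.

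The clamp, clamp loader and fork genes numbered 9, and 8 fell against isthmus and 5 against chief cells. Pcna, the sliding clamp, was at 11.97, 11.84 and 12.26 log2 in chief, 12.35, 11.99 and 12.47 in isthmus and 11.32, 11.09 and 11.42 in parietal samples. Its drop was small, and no parietal array overlapped with an array of another group. It fell 1.99-fold against isthmus (log2 -0.99 ± 0.20 SE, adjusted p = 0.00244) and 1.68-fold against chief cells (adjusted p = 0.0151), the latter call being lost without chief replicate 3 or parietal replicate 2 (adjusted p of up to 0.0596). The loader subunit Rfc4 was 8.47, 8.0 and 8.11 in chief, 9.38, 9.76 and 9.31 in isthmus and 1.95, 6.73 and 6.18 in parietal samples. Rfc4 fell at least 9.38-fold against isthmus (adjusted p = 0.00477) and at least 3.84-fold against chief cells (adjusted p = 0.0321), a call lost without any 1 of the chief arrays (adjusted p of 0.0643 to 0.0821). Rfc5 was 8.13, 8.67 and 8.56 in chief, 9.32, 9.21 and 9.72 in isthmus and 6.36, 6.37 and 6.80 in parietal samples, with 3 separate groups. Rfc5 fell 7.50-fold (adjusted p = 0.000711) and 3.85-fold (adjusted p = 0.0106) against isthmus and chief cells. The latter call was lost without chief replicate 3 and parietal replicate 1 together (adjusted p = 0.0714).

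Rfc3, whose promoter stretch is printed above, was 7.61, 9.55 and 6.16 log2 in chief, 9.91, 9.40 and 8.89 in isthmus and 6.71, 6.59 and 4.91 in parietal samples. Rfc3 fell at least 8.07-fold against isthmus cells (adjusted p = 0.0094), and the wide chief values overlapped with the parietal ones (log2 -1.70, adjusted p = 0.157). Rfc2 was not called, at -0.97 and -0.34. Fen1, the flap nuclease of lagging-strand maturation, was 11.36, 10.64 and 11.62 in chief, 11.81, 11.52 and 11.63 in isthmus and 8.95, 10.14 and 9.33 in parietal samples. Fen1 fell 4.53-fold against isthmus (adjusted p = 0.000523) and 3.32-fold against chief cells (adjusted p = 0.00284). Lig1, the ligase that seals the fragments, was 9.53, 10.07 and 10.11 in chief, 11.62, 9.16 and 11.63 in isthmus and 8.12, 8.02 and 7.23 in parietal samples. Lig1 fell 8.07-fold against isthmus (adjusted p = 0.00233) and 4.33-fold against chief cells (adjusted p = 0.0208), the latter call being lost without chief replicate 2, chief replicate 3 or parietal replicate 3 (adjusted p of up to 0.076). The single-strand binding proteins fell against isthmus cells only by the threshold. Rpa1 fell 1.87-fold (adjusted p = 0.0296) and Rpa2 5.92-fold (adjusted p = 0.0144), with log2 differences of -0.30 and -0.44 against chief cells. The Rpa1 call was lost without isthmus replicate 2, isthmus replicate 3 or parietal replicate 2 (adjusted p of up to 0.121). The Rpa2 call was lost without isthmus replicate 1 or 2 or parietal replicate 2 or 3 (adjusted p of up to 0.0604).

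Of 5 nucleotide supply genes, 4 fell against isthmus and 3 against chief cells. Rrm2, the regulated subunit of ribonucleotide reductase, was 11.26, 12.11 and 11.68 log2 in chief, 12.65, 12.30 and 12.57 in isthmus and 10.22, 7.50 and 9.43 in parietal samples. The groups lay apart in the order isthmus, chief, parietal. Rrm2 fell 11.0-fold against isthmus (log2 -3.46 ± 0.52 SE, adjusted p = 0.000367) and 6.20-fold against chief cells (adjusted p = 0.00271). Tk1, the thymidine kinase of S phase, was 8.85, 9.19 and 9.97 in chief, 9.76, 9.49 and 9.50 in isthmus and 3.66, 5.88 and 7.21 in parietal samples. Tk1 fell at least 9.65-fold (adjusted p = 0.00182) and at least 8.13-fold (adjusted p = 0.00327) against isthmus and chief cells, whose own arrays overlapped. Rrm1, the large reductase subunit, was 10.21, 10.74 and 11.52 in chief, 11.01, 11.24 and 11.62 in isthmus and 9.22, 10.34 and 9.51 in parietal samples. Rrm1 fell 3.03-fold against isthmus (adjusted p = 0.00757) and 2.19-fold against chief cells (adjusted p = 0.0468). The latter call held only without chief replicate 1 or parietal replicate 2 among fits lacking 1 array (adjusted p of up to 0.18).

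Dut, which removes dUTP, was 10.28, 11.01 and 9.75 log2 in chief, 10.91, 9.95 and 10.96 in isthmus and 9.70, 9.40 and 9.06 in parietal samples. Dut fell 2.33-fold against isthmus cells (adjusted p = 0.0376), a call lost without isthmus replicate 1 or 3 or parietal replicate 2 or 3 (adjusted p of up to 0.13), and was at -0.96 against chief cells. Tyms, thymidylate synthase, was measured near background. Its probe set read 4.91, 6.40 and 6.84 in chief, 6.22, 4.27 and 7.55 in isthmus and 4.03, 4.65 and 3.77 in parietal samples, with log2 differences of -1.86 and -1.90 for parietal against isthmus and chief cells, neither called.

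Of the chromatin genes, Uhrf1 and Chaf1b fell in both comparisons and Slbp did not. Uhrf1, which guides DNA methylation to new strands, was 8.87, 9.95 and 10.01 log2 in chief, 11.23, 11.03 and 11.13 in isthmus and 6.44, 6.34 and 5.48 in parietal samples. The 3 groups lay well apart. Uhrf1 fell at least 30.2-fold against isthmus (log2 -5.04 ± 0.46 SE, adjusted p = 1.18e-05) and at least 10.5-fold against chief cells (adjusted p = 0.000169). Its isthmus arrays had an SD of 0.10 around a mean of 11.13. Chaf1b, a subunit of chromatin assembly factor 1, was 8.57, 7.82 and 8.87 in chief, 7.95, 8.22 and 8.16 in isthmus and 2.55, 4.63 and 1.27 in parietal samples. Chaf1b fell at least 4.83-fold (adjusted p = 0.000819) and at least 5.99-fold (adjusted p = 0.000678) against isthmus and chief cells. Slbp, which binds histone messenger RNA, was 10.46, 11.70 and 10.79 in chief, 12.58, 11.93 and 11.95 in isthmus and 11.88, 11.44 and 11.84 in parietal samples. In parietal cells it was at -0.43 against isthmus and 0.74 against chief cells, neither called (adjusted p = 0.321 and 0.0975).

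Of the 5 genes that control entry into S phase, 3 fell against isthmus and 2 against chief cells. E2f2, an activating E2F factor, was 10.03, 9.67 and 9.74 log2 in chief, 10.33, 8.92 and 9.52 in isthmus and 5.86, 3.07 and 4.25 in parietal samples. E2f2 fell at least 13.5-fold against isthmus (log2 -5.20 ± 0.70 SE, adjusted p = 0.00017) and at least 15.7-fold against chief cells (adjusted p = 0.000153). A second E2f2 probe set gave means of 8.80 in the chief, 9.48 in the isthmus and 3.33 in the parietal samples. E2f1, another activator, was 8.62, 8.47 and 7.91 in chief, 7.95, 7.97 and 8.84 in isthmus and 5.70, 6.69 and 4.23 in parietal samples. E2f1 fell at least 4.35-fold (adjusted p = 0.0122) and at least 4.59-fold (adjusted p = 0.0121) against isthmus and chief cells, and the first of these calls was lost without isthmus replicate 3 (adjusted p = 0.0534). Chief and isthmus arrays overlapped for both factors.

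Cdk2, the kinase of the G1/S switch, was 8.45, 7.37 and 7.67 log2 in chief, 10.56, 9.03 and 9.51 in isthmus and 5.65, 8.45 and 7.45 in parietal samples. The isthmus arrays lay above all others, and parietal and chief arrays overlapped. Cdk2 fell at least 5.46-fold in parietal against isthmus cells (adjusted p = 0.0185), a call lost without isthmus replicate 1 or parietal replicate 1 (adjusted p of up to 0.085), and was at -0.65 against chief cells. Its cyclin partners were not called. Ccne1 was 3.67, 8.50 and 5.97 in chief, 7.39, 8.79 and 9.78 in isthmus and 6.10, 2.21 and 7.46 in parietal samples. Ccne2 was 6.37, 7.47 and 6.50 in chief, 6.96, 5.87 and 7.85 in isthmus and 7.02, 4.04 and 5.97 in parietal samples. Parietal against isthmus log2 differences were -3.40 for Ccne1 and -1.22 for Ccne2 (adjusted p = 0.0902 and 0.36).

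Between isthmus and chief cells, the smallest adjusted p-values belonged to Slbp, Mcm4 and Mcm10. Slbp was 1.17 log2 higher in isthmus cells (SE 0.30, adjusted p = 0.073), Mcm4 1.50 higher (SE 0.40, adjusted p = 0.0823) and Mcm10 2.17 higher (SE 0.63, adjusted p = 0.108). For all 3 every isthmus array lay above every chief array. Slbp passed the threshold without chief replicate 2 (adjusted p = 0.0237), but the mean of all its probe sets was lower in isthmus cells (log2 -0.28, adjusted p = 0.854). Uhrf1 was 1.52 higher (adjusted p = 0.118), Mcm7 0.79 (adjusted p = 0.138), Rpa2 2.12 (adjusted p = 0.141) and Cdk2 1.87 (adjusted p = 0.204). The largest difference, 2.61 for Ccne1, had overlapping arrays and an SE of 1.40. By role, the median difference was 1.17 over the 3 chromatin genes, 0.95 for licensing, 0.90 for clamp and fork, 0.88 for firing and 0.65 for polymerases. It was 0.26 for nucleotide supply and 0.11 for G1/S control, where E2f1 stood at -0.08 and E2f2 at -0.22. Chief arrays themselves carried cycle transcripts, with Mki67, the Ki-67 proliferation antigen, at 12.22, 12.37 and 12.98 log2.

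**Figure D4:**
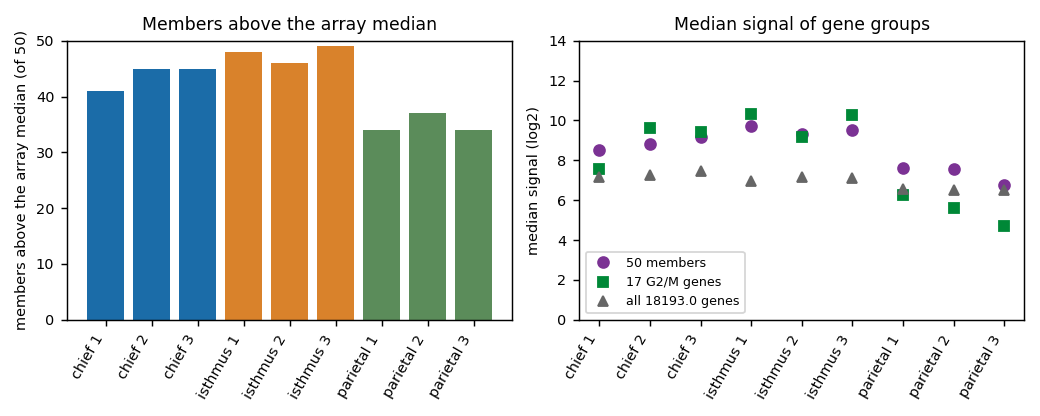
Left, the number of the 50 genes above the array median on each array (bars, axis from 0). Right, the median log2 signal per array of the 50 genes, of 17 G2/M genes and of all 18193 genes. The all-gene medians lie at 6.50 to 7.44, with the parietal arrays lowest at 6.50 to 6.57. Parietal arrays have the fewest genes above the median, 34 to 37, and chief replicate 1 has the lowest G2/M median outside the parietal group, 7.56.

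Members that hold the E2F letters and members that do not were both lower in parietal cells. Of 14 tested genes with the letters 12 fell against isthmus cells, with a median log2 difference of -3.07, and of 25 without them 20 fell, with a median of -2.23. Among genes outside the list, 20.3% of the 414 tested with the letters were called lower against isthmus cells, and 14.6% of the 8519 without them. These shares describe the array and were not tested.

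Other probe sets of the same genes mostly moved alike. In 39 of the 50 genes there were 58 other probe sets. Of those that were not dim, 36 of 40 had the same sign of the parietal minus isthmus difference, and 1 each of Cdc45, Cdc7, Orc2 and Slbp had the opposite sign. For parietal against chief cells it was 30 of 34, the exceptions being Cdc45, Orc2, Pold1 and Rfc2. For isthmus against chief cells it was 31 of 38, the exceptions being E2f2, Fen1, Gins2, Mcm2, Orc2, Rfc4 and Slbp. These counts take the sign alone, however small the difference. The second Cdc7 probe set counted as alike against chief cells with means of 6.24 (parietal) and 6.26 (chief). Of the 50 probe sets used, 8 hold some probes that match other transcripts (suffix x) and 5 match several transcripts (suffix s), so other RNAs can add to their signal.

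The further replication proteins, 28 of 29 tested, had a median difference of -1.75 in parietal against isthmus cells and of -1.10 against chief cells. Against isthmus cells 8 fell and none rose, where 15.4% of all genes tested were called lower. Against chief cells 3 fell and none rose, a share below the 13.5% of all genes tested. Timeless, a fork protection protein, was 9.54, 8.81 and 8.81 log2 in chief, 10.36, 8.08 and 9.40 in isthmus and 2.01, 1.03 and 1.78 in parietal samples. Timeless fell at least 10.9-fold (adjusted p = 2.6e-05) and at least 9.30-fold (adjusted p = 3.33e-05) against isthmus and chief cells. Its partner Tipin fell 3.65-fold against isthmus cells (adjusted p = 0.0397), a call lost without any 1 isthmus or parietal array (adjusted p of up to 0.119). Dnmt1, the maintenance DNA methyltransferase that Uhrf1 recruits, was 11.10, 10.57 and 11.07 in chief, 11.67, 11.61 and 11.73 in isthmus and 9.50, 9.24 and 9.38 in parietal samples. The groups lay apart, and Dnmt1 fell 4.91-fold against isthmus (adjusted p = 4.72e-05) and 2.91-fold against chief cells (adjusted p = 0.000883). Hells, a chromatin remodeller, fell at least 10.3-fold against isthmus cells (adjusted p = 0.00218). Orc3, Orc4 and Orc5 were not called in any comparison.

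The RB family and the other E2F factors did not move as 1 group. Of 13 tested, 3 fell and 1 rose against isthmus cells, and 1 fell against chief cells, with medians of -1.06 and -0.10. Over all genes 15.4% were called lower and 12.2% higher against isthmus cells, and 13.5% lower against chief cells. E2f8, a repressor E2F that is itself an E2F target, was 9.64, 8.38 and 10.63 log2 in chief, 10.88, 9.77 and 10.52 in isthmus and 6.10, 6.32 and 4.36 in parietal samples. It fell at least 19.7-fold (adjusted p = 0.000241) and at least 11.0-fold (adjusted p = 0.00109) against isthmus and chief cells. Rbl1, the RB relative p107 that is made in cycling cells, fell at least 6.47-fold against isthmus cells (adjusted p = 0.0034), and Tfdp1, the E2F partner, fell 2.08-fold (adjusted p = 0.00392). Rbl2, the relative p130 of resting cells, rose 2.12-fold against isthmus cells (adjusted p = 0.0477). The Rbl2 call held only without chief replicate 1 or parietal replicate 1 among fits lacking 1 array (adjusted p of up to 0.187). Rb1 was at -0.04 and 0.36 against isthmus and chief cells, neither called.

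The cyclin D, kinase and inhibitor genes numbered 12 in all. In parietal cells 2 were called higher and 5 lower against isthmus cells, and 2 higher and 4 lower against chief cells. Over all genes tested, 12.2% were called higher and 15.4% lower against isthmus cells, and 10.7% higher and 13.5% lower against chief cells. Cdkn1a, the inhibitor p21, was 10.68, 10.81 and 11.17 log2 in chief, 11.04, 11.36 and 11.28 in isthmus and 12.47, 12.29 and 12.29 in parietal samples. Parietal arrays were above all others, and Cdkn1a rose 2.18-fold against isthmus (adjusted p = 0.00143) and 2.76-fold against chief cells (adjusted p = 0.000286). Cdkn2b, the inhibitor p15 of Cdk4 and Cdk6, was 6.17, 8.45 and 10.06 in chief, 10.43, 10.36 and 10.01 in isthmus and 13.00, 12.76 and 13.23 in parietal samples. It rose 6.63-fold against isthmus (adjusted p = 0.00996) and at least 26.0-fold against chief cells (adjusted p = 0.000338). Cdkn1b, the inhibitor p27, was not called, at -0.13 and 0.03. Its sign turned when arrays were centred on their median in the first comparison (0.08) and with quantile normalization in the second (-0.07). Cdkn1c, the inhibitor p57, was 11.93, 8.85 and 10.93 in chief, 3.95, 3.82 and 6.88 in isthmus and 8.46, 1.72 and 2.28 in parietal samples. It fell at least 14.6-fold in parietal against chief cells (adjusted p = 0.0103), and its isthmus minus chief difference of -5.69 missed the threshold (adjusted p = 0.0918).

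Ccnd2, a D cyclin that activates Cdk4 and Cdk6, was 13.09, 13.08 and 12.90 log2 in chief, 12.34, 12.20 and 12.52 in isthmus and 10.17, 9.82 and 9.45 in parietal samples. It was highest in chief cells and fell in parietal cells 5.82-fold against isthmus (adjusted p = 6.12e-06) and 9.25-fold against chief cells (adjusted p = 1.09e-06). Ccnd1 was 9.14, 10.34 and 9.57 in chief, 11.06, 11.43 and 11.10 in isthmus and 9.35, 9.07 and 7.89 in parietal samples. Ccnd1 fell 5.38-fold against isthmus cells (adjusted p = 0.00128) and was at -0.91 against chief cells (adjusted p = 0.15). The other Ccnd1 probe sets were lower in parietal than in chief samples by a wider margin. Their means were 10.25 and 7.87 in chief, 10.44 and 8.32 in isthmus and 8.43 and 5.94 in parietal samples. Cdk6 fell 8.94-fold (adjusted p = 0.000353) and 3.96-fold (adjusted p = 0.00845) against isthmus and chief cells. Cdk4 fell 3.05-fold (adjusted p = 0.0107) and 2.61-fold (adjusted p = 0.0268), calls lost without isthmus replicate 1 (0.05) and without chief replicate 1, chief replicate 3 or parietal replicate 2 (0.0928 to 0.104). Myc, a growth regulator, fell 2.94-fold against isthmus cells (adjusted p = 0.00814).

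**Figure D5:**
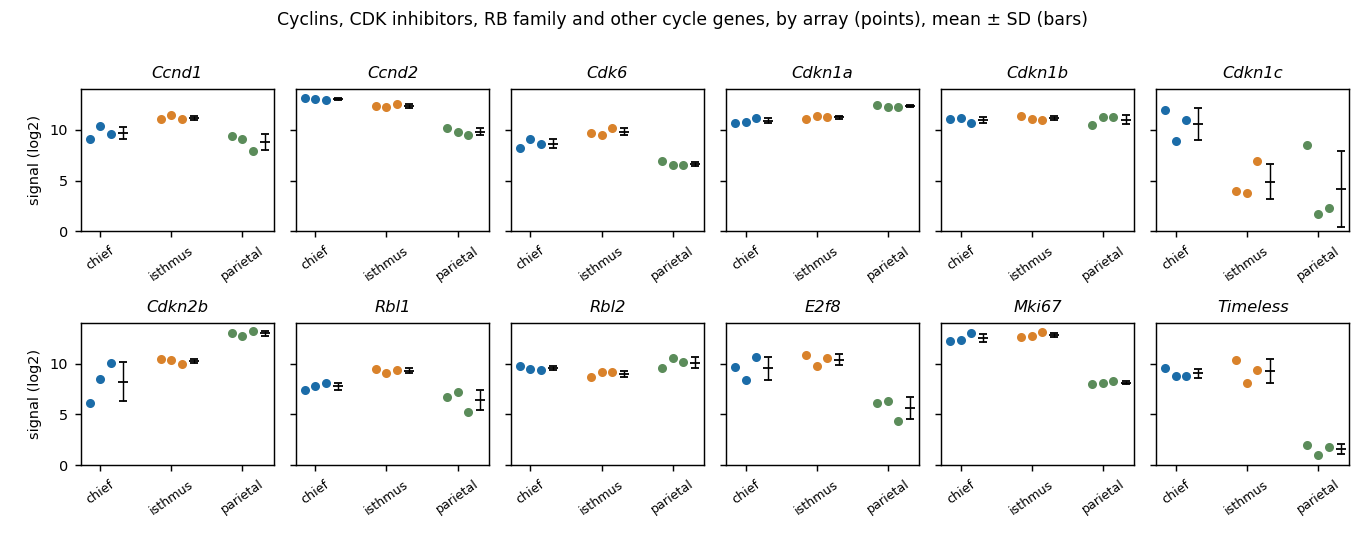
Log2 signal by array (points) with group mean ± SD (bars, n = 3) for D cyclins, Cdk6, CDK inhibitors, RB relatives, E2f8, Mki67 and Timeless. Cdkn1a and Cdkn2b are highest in all 3 parietal samples, while Ccnd2, Cdk6, E2f8, Mki67 and Timeless are lowest there.

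The G2/M genes set a scale for the same samples. Of 17 tested, 16 fell against isthmus and 13 against chief cells, with medians of -4.47 and -3.47. Over all genes tested, 15.4% and 13.5% were called lower, with medians of -0.09 and -0.10. The isthmus minus chief difference was positive for all 17, with a median of 1.15 and none called. It was positive for 5715 of all 11006 genes, with a median of 0.03. Mki67 was 12.67, 12.76 and 13.08 log2 in the isthmus and 8.0, 8.10 and 8.28 in the parietal samples. It fell 26.2-fold against isthmus (adjusted p = 4.94e-07) and 21.1-fold against chief cells (adjusted p = 3.33e-07). Top2a, the topoisomerase that untangles copied DNA, fell at least 30.7-fold (adjusted p = 9.48e-05) and at least 14.2-fold (adjusted p = 0.000441). Tpx2, a spindle assembly factor, fell at least 20.1-fold (adjusted p = 4.3e-06) and at least 9.02-fold (adjusted p = 1.3e-05). The median G2/M signal was 7.56, 9.62 and 9.44 in chief, 10.30, 9.17 and 10.25 in isthmus and 6.25, 5.62 and 4.68 in parietal samples. Chief replicate 1 had the lowest median of the Mist1+ arrays for G2/M genes, as it had for the replication genes.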

How the data were processed

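Total RNA of 9 mouse stomach samples was biotin-labelled and hybridised to 1 Affymetrix mouse array each, per the labels' protocols. The deposited log2 values come from MAS5 as run by the authors, per the submitters' processing notes, and neither its version nor the step to log2 is given in the sources used here. The 2% trimmed mean of the linear signal was 496 to 497 on each array, and 1.99% to 3.91% of values were exactly 0.

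Groups came from the sample titles. Of 45037 probe sets, 34945 named 1 gene. The values were tested as deposited with limma 3.58.1 in R 4.3.3 (lmFit, contrasts.fit, then eBayes with a trend on intensity), all 9 arrays in 1 fit with 3 group means. Tests were two-sided, with Benjamini-Hochberg adjustment over 11006 genes and a call at an adjusted p under 0.05. The script was tested on simulated data. For a fold given as "at least", each array of the dimmer group was set to the higher of its value and its array median, a limit chosen with the values known. The number of arrays limits the precision.

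The genes, lists, alternatives and array exclusions were chosen with earlier results of these data known. All 51 genes are named. Per-array values were given, in each role group and comparison, for up to 4 called genes with the largest difference, or the 2 brightest where none was called, and for 12 genes chosen by name. Gins2, Gins4, Prim1, Pold1 and Rpa1 were picked by this rule as brightest, but only differences are given for them. Other values were chosen after they were seen. E2F, CHR and CCAAT letters were sought in RefSeq promoters of 300 bases. The alternatives were pseudocounts of 16 and 64, quantile normalization, median centring, other filters on dim genes, the mean of all probe sets, 2-group fits, no intensity trend, a replicate block and leaving out arrays. Muc6 and Ccnb1 were not analysed here, and E2f7 was too dim to test.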

Additional observations from a re-analysis of the deposited data

How the results depend on the processing

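Depth is not defined for arrays. The limits here are 3 arrays a group, dim parietal values below the array median, and 1 probe set a gene. Of the 25 calls between parietal and chief cells 11 held under every alternative run, and of the 37 between parietal and isthmus cells 24 did. With 1 array left out in turn, the genes called were 0 to 1 for isthmus against chief, 18 to 26 for parietal against chief and 29 to 36 for parietal against isthmus cells. Over all genes the isthmus minus chief calls numbered 182 and were 19 to 163 with 1 array left out, the parietal minus chief calls 2664 and 1909 to 2614, and the parietal minus isthmus calls 3030 and 2275 to 3223. The median over the 48 genes was then 0.53 to 0.95, -1.92 to -1.38 and -2.83 to -2.14.

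Of isthmus minus chief, 1 gene was called with a pseudocount of 64 (Mcm10) and 1 with the mean of all probe sets (Mcm4). All-gene calls in this comparison were 316 with a pseudocount of 64, 95 with no filter, 118 with the mean of all probe sets, 91 with only the 2 groups compared, 43 with no intensity trend and 50 without chief replicate 3 and parietal replicate 1 together. Without those 2 arrays the parietal minus chief comparison called 14 of the 48 genes and 1601 of all genes. The parietal minus isthmus median of -2.73 was -2.38 with a pseudocount of 16, -1.91 with 64, -2.20 after quantile normalization and -2.17 with the mean of all probe sets. A pseudocount shrinks differences of dim genes by construction, and the 2-group fit and the fit without both arrays used fewer arrays. For the other settings the cause was not tested. Scaling moved the all-gene median from -0.10 to 0.07 (quantile) and 0.05 (centred) in parietal minus chief, and from -0.09 to 0.07 and 0.12 in parietal minus isthmus. Centring raised the share of calls that were higher from 44.0% to 54.6% and from 44.2% to 57.0%. The 48 genes then had 22 lower and 2 higher calls, and 32 lower and 1 higher.

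The sign turned for genes that were not called in the comparison concerned, and the cause was not tested. In isthmus minus chief, Tyms was 0.04, 0.07 and 0.19 with pseudocounts of 16 and 64 and quantile normalization. With the mean of all probe sets E2f1 was 0.31, E2f2 0.22, Mcm2 -0.19 and Slbp -0.28. Without chief replicate 3 and parietal replicate 1 together Ccne2 was -0.03, Gins2 0.37 and Tyms 0.36. With 1 array left out, Ccne2 ran from -0.36 to 0.62, E2f1 from -0.37 to 0.07, E2f2 from -0.59 to 0.11, Gins2 from -0.72 to 0.37, Gins4 from -0.14 to 0.87, Mcm2 from -0.30 to 0.54 and Tyms from -0.80 to 0.84. In parietal minus chief, quantile normalization gave 0.14 for Ccne1, 0.63 for Cdc45 and -0.07 for Cdkn1b, and leaving out both arrays gave 0.12 for Cdc45 and 0.04 for Cdk2. With 1 array left out, Ccne1 ran from -1.98 to 0.73, Cdc45 from -0.60 to 0.06, Cdk2 from -1.28 to 0.12 and Cdkn1b from -0.12 to 0.27. In parietal minus isthmus, Cdkn1c was 0.07, 0.26 and 0.17 with pseudocounts of 16 and 64 and quantile normalization, and -2.88 to 0.49 with 1 array left out. Cdkn1b was 0.08 after centring, 0.11 without both arrays and -0.26 to 0.11 with 1 array left out.

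Arrays of the same replicate number did not vary together beyond a correlation of 0.073. The labels do not say whether the numbers pair the samples, and correlations this small cannot settle it. Each isthmus array correlated best with the chief array of its own number, a hint from the data and not from the design. With the replicate number as a block, 0 genes were called in isthmus minus chief, 25 in parietal minus chief and 35 in parietal minus isthmus.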
